A study of Sus scrofa with 2 samples.

Results

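The genes described here are 8 that control NF-kB signalling, NFKBIA, TNFAIP3, CYLD, TRAF6, MAP3K14, NFKB1, RELA and NFKB2, out of 19550 protein-coding genes on the placed pig chromosomes. They were chosen by name with earlier results of these data known, and 4 of them had already been seen at a chromatin loop in this same series, so every count below is a description and none was tested. The data came from in situ Hi-C, in which neighbouring pieces of crosslinked chromatin are joined inside the nucleus and read as pairs, on spleen of pig (Sus scrofa) in 2 biological replicates of 1 group. The labels give tissue only, and nothing on the animals' breed, age or sex. The deposited tables hold 1927 topologically associating domains (TADs, segments whose sequences meet each other more often than sequences outside) and 3410 loops (pairs of 25 kb anchors with more contacts than the map around them), listed for the series and not for each replicate. No value therefore has a replicate spread, and the intervals below are exact 95% Poisson intervals on the contact count, which cover counting error only. Of the loops, 3402 lay on placed chromosomes, with a median of 108 observed contacts. Spleen is a mixture of cell types, and the contacts are an average over them.

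NF-kB is a family of transcription factors that turn on genes of inflammation, lymphocyte survival and the immune response. In resting cells IkB proteins hold the factors in the cytoplasm. Receptors of cytokines, microbial products and antigen recruit adaptors and ubiquitin ligases that activate the IkB kinase complex, which marks IkB for destruction by the proteasome. A second, slower branch, driven by receptors such as CD40 and the BAFF receptor, acts through the kinase NIK and the processing of the p100 precursor. NF-kB induces several of its own inhibitors, and this feedback ends the response.

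Of the 8 genes, 4 had an annotated end inside a loop anchor, against 17.3% of all protein-coding genes, and the count was also 4 when any base of the gene was allowed, against 20.7%. These were NFKBIA, CYLD, TRAF6 and MAP3K14, and since that contrast chose the members, nothing is read from the difference. The 4 genes held 5 loops, 4 at a gene end and 1 inside the body of CYLD. TNFAIP3, RELA and NFKB2 touched no anchor but lay between the anchors of a loop, and NFKB1 had neither. The genes nearest to the limit of this rule were TRAF6 on the inner side, whose end lay 3262 bases inside its anchor, and RELA on the outer side, 22.3 kb from the nearest anchor, followed by NFKB2 at 31.4 kb.

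**Figure D1:**
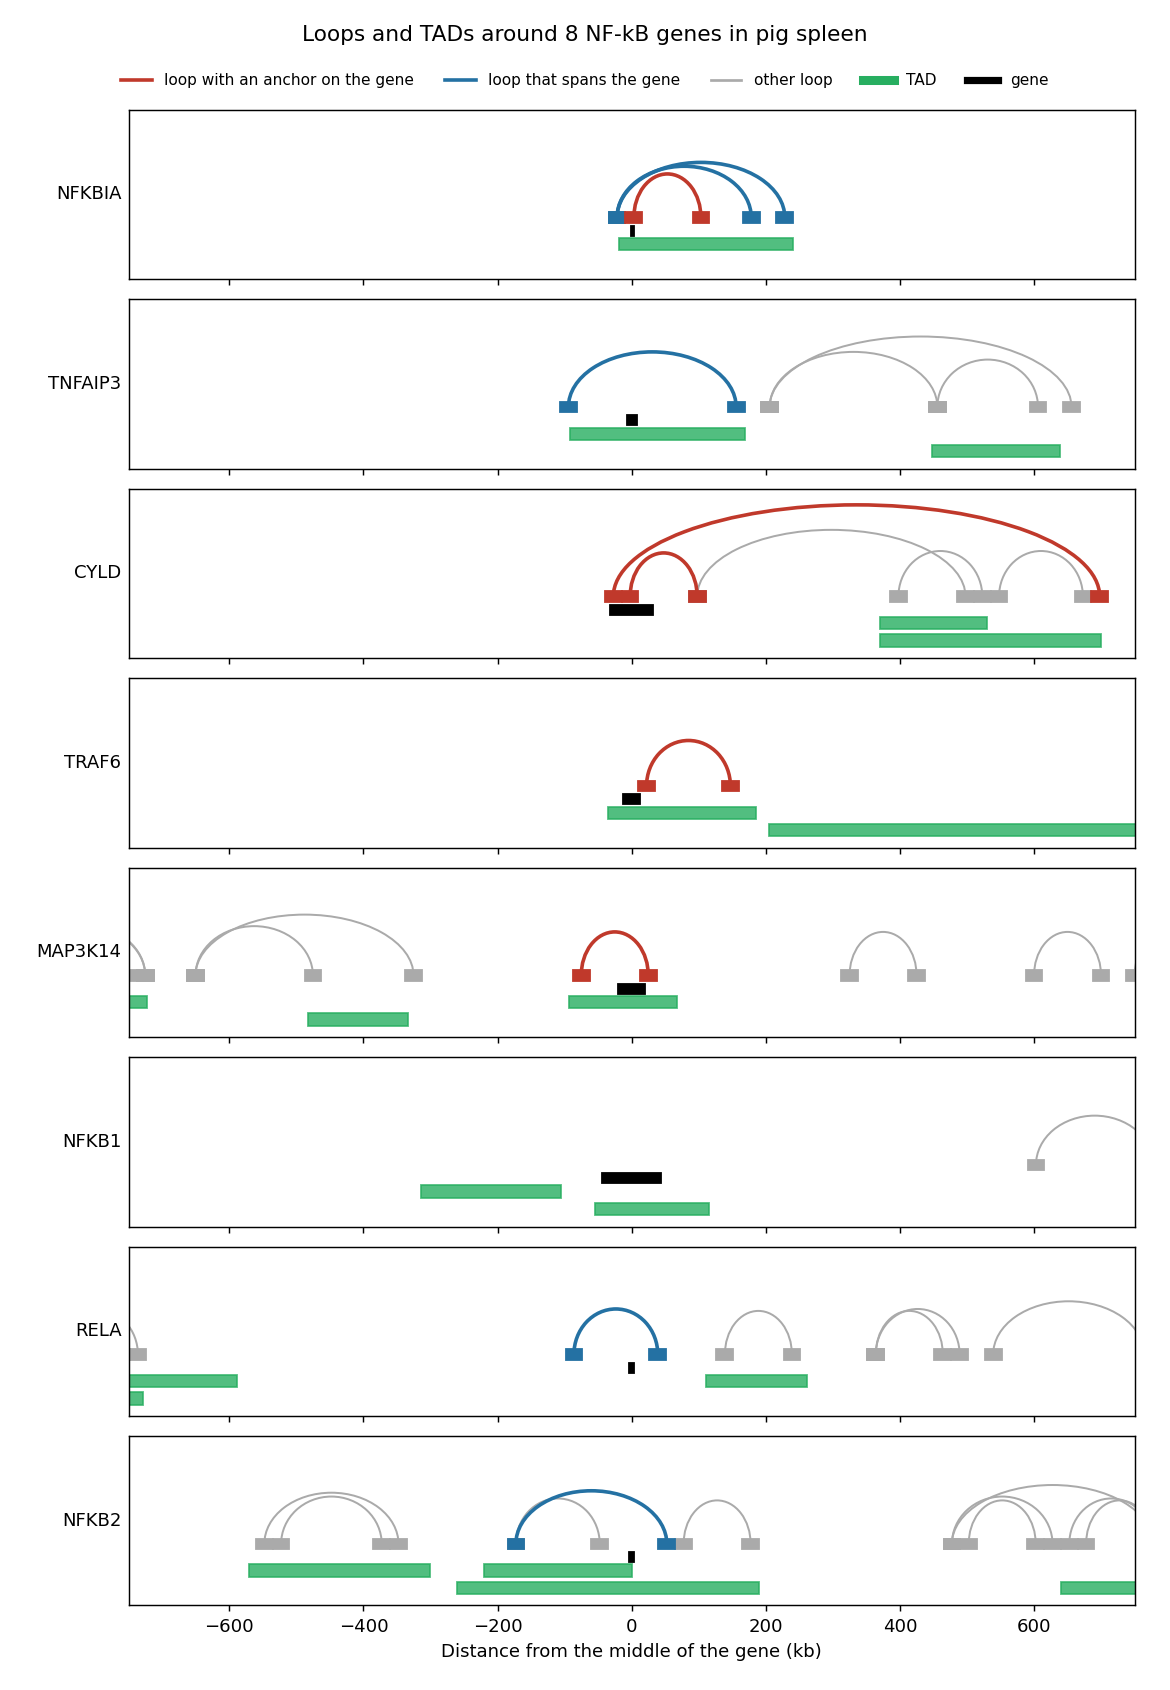
Loops (arcs over their 2 anchors) and TADs (green bars) within 750 kb of the middle of each of the 8 genes, on an axis of distance in kb. Red arcs have an anchor on the gene and occur at NFKBIA, CYLD, TRAF6 and MAP3K14. Blue arcs span the gene and occur at NFKBIA, TNFAIP3, RELA and NFKB2. Grey arcs are other loops. NFKB1 lies in a TAD and has no red or blue arc. Arc height follows the span and carries no contact value.

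The inhibitors of the pathway come first. NFKBIA encodes IkB-alpha, the inhibitor that NF-kB itself induces, and is a short gene of 2.64 kb on chromosome 7, from 64508119 to 64510754 (RefSeq annotation of Sscrofa11.1). The whole gene lay in the anchor from 64500001 to 64525000, with no other protein-coding gene end, beside ends of the lncRNA genes LOC110261573 and LOC106507710. Its loop of 100 kb led to the anchor from 64600001 to 64625000, which held ends of PSMA6, a subunit of the proteasome core, of KIAA0391, the mitochondrial RNase P nuclease, and of the lncRNA gene LOC102166186. No protein-coding gene lay wholly between the 2 anchors.

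The NFKBIA loop had the most contacts of the 5. It counted 197 contacts (Poisson interval 170 to 227) against 96.1 expected from the donut of pixels around it, a ratio of 2.05 (1.77 to 2.36). Against the lower-left, horizontal and vertical neighbourhoods the ratios were 2.16, 1.77 and 2.01. The count exceeded that of 674 of 719 autosomal loops of similar span (0.8 to 1.2 times its own), whose median was 136 contacts, and the ratio exceeded that of 635 of them. Its largest FDR over the 4 neighbourhoods was 8.8e-07 in the authors' deposited table, which put it at rank 311 of the 3402 placed loops.

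NFKBIA also lay inside 2 longer loops that began in the next bin, from 64475001 to 64500000, 8.12 kb from the gene. The first reached 200 kb to the bin from 64675001 to 64700000, with 147 contacts (124 to 173) and a ratio of 2.20. The second reached 250 kb to the bin from 64725001 to 64750000, with 116 contacts (95.9 to 139) and a ratio of 2.36. Both far anchors overlapped the body of KIAA0391 and held no protein-coding gene end. The longer loop joined the 2 edges of a TAD of 260 kb, from 64490001 to 64750000, that held the midpoints of NFKBIA, PSMA6 and KIAA0391 and of no other protein-coding gene. NFKBIA lay 18.1 kb inside the left edge, so that its own loop ran within the TAD and the 2 longer loops spanned most or all of it. The median TAD was 260 kb long and held 2 protein-coding genes.

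TNFAIP3 encodes A20, a ubiquitin-editing enzyme that NF-kB induces and that shuts down signalling from receptors of TNF and microbial products. The gene spans 15.6 kb on chromosome 1, from 26474158 to 26489771, and no anchor touched it. It was the only protein-coding gene wholly between the anchors of a 250 kb loop, from the bin at 26375001 to 26400000 to the bin at 26625001 to 26650000. That loop had 102 contacts (83.2 to 124) against 51.4 expected, a ratio of 1.98 (1.62 to 2.41). Of 847 autosomal loops of similar span, 459 had fewer contacts and 276 a lower ratio, so its contacts were near the median of 98 and its ratio below the median of 2.10.

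The loop that spanned TNFAIP3 joined the 2 edges of a TAD from 26390001 to 26650000, again 260 kb long. The TAD held TNFAIP3 and the unnamed locus LOC106508840, whose ends lay in the right anchor. TNFAIP3 stood 84.2 kb from the left edge and 160 kb from the right edge, away from both. A loop closed the TAD around NFKBIA and the TAD around TNFAIP3, and NFKBIA alone of these had a further loop from the gene itself. CYLD, also an inhibitor, lay in no TAD. Closing was not particular to inhibitors, since loops at the pathway genes BTRC and TNFRSF13C also closed a TAD. The share of all placed loops that close a TAD was not computed.

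CYLD encodes a deubiquitinase that removes the linear and lysine-63 ubiquitin chains needed to activate the IkB kinase. It spans 63.8 kb on chromosome 6, from 34058091 to 34121939, and 2 loops started on it from neighbouring bins. The first started at a gene end, in the anchor from 34050001 to 34075000, and spanned 725 kb to the anchor from 34775001 to 34800000, which held CNEP1R1, a subunit of a nuclear envelope phosphatase. It had 62 contacts (47.5 to 79.5) against 26.4 expected, a ratio of 2.35 (1.80 to 3.02). Among 88 autosomal loops of similar span, 52 had fewer contacts and 22 had a lower ratio, with medians of 57.5 contacts and 2.63. It was the longest loop of the members and the one with the fewest contacts, so its ratio has the widest interval of the 5. Between its anchors lay 7 whole genes, NOD2, SNX20, NKD1, BRD7, ADCY7, PAPD5 and HEATR3.

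The second CYLD loop started inside the gene body, in the anchor from 34075001 to 34100000, and reached 100 kb to the anchor from 34175001 to 34200000. That anchor held SNX20, a sorting nexin of leukocytes that binds the selectin ligand PSGL-1. The loop had 148 contacts (125 to 174) and a ratio of 1.70 (1.437 to 1.996), with 459 of 719 autosomal loops of similar span having fewer contacts and 319 a lower ratio. The gene between its anchors was NOD2, the sensor of bacterial muramyl dipeptide that signals to NF-kB. The SNX20 anchor carried a further loop of 400 kb, with 74 contacts and a ratio of 2.31, to an anchor holding an end of ADCY7, an adenylate cyclase of blood cells.

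No listed TAD held CYLD. The nearest TADs began 338 kb to the right, at 34460001, and ran to 34620000 and to 34790000, the shorter inside the longer. The longer held BRD7, ADCY7, PAPD5, HEATR3 and CNEP1R1, and its right edge fell within the CNEP1R1 anchor. The 725 kb CYLD loop therefore joined a gene outside any TAD to the far edge of the neighbouring TAD.

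The activators TRAF6 and MAP3K14 each had 1 short loop inside a TAD. TRAF6 encodes the ubiquitin ligase that carries signals of Toll-like and interleukin-1 receptors, and it spans 25.5 kb on chromosome 2, from 24602749 to 24628263. Its anchor, from 24625001 to 24650000, also held an end of PRR5L, a partner of the mTORC2 kinase complex. The loop of 125 kb reached the bin from 24750001 to 24775000, which overlapped the body of PRR5L and held an end of the lncRNA gene LOC106507997, with no protein-coding end. It had 107 contacts (87.7 to 129) against 58.8 expected, a ratio of 1.82 (1.49 to 2.20). Of 1434 autosomal loops of similar span, 258 had fewer contacts and 749 a lower ratio, so its contacts stood low and its ratio near the median of 1.80 among them. In the authors' deposited table its FDR was 9.71e-05 against the donut and 0.0925 against the vertical neighbourhood, and the larger value put it at rank 3289 of 3402. The TAD around it, from 24580001 to 24800000, held TRAF6 and PRR5L alone, and TRAF6 lay 22.7 kb from its left edge. The next loop on the chromosome was 2172 kb away from the gene.

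MAP3K14 encodes NIK, the kinase at the head of the slower NF-kB branch. It spans 40.03 kb on chromosome 12, from 18142899 to 18182931, and its end lay in the anchor from 18175001 to 18200000. That anchor was gene-dense, with ends of SPATA32, of the unnamed locus LOC100524336 and of FMNL1, a formin of blood cells. The loop of 100 kb ran to the bin from 18075001 to 18100000, which held the lncRNA gene LOC110255991 and no protein-coding gene. It had 158 contacts (134 to 185) against 91.9 expected, a ratio of 1.72 (1.46 to 2.01), with 505 of 719 autosomal loops of similar span having fewer contacts and 350 a lower ratio. Its FDR in the authors' deposited table was 9.95e-06 against the donut and 0.0678 against the horizontal neighbourhood, and the larger value put it at rank 2934 of 3402. The TAD, from 18070001 to 18230000, held MAP3K14 and its 3 anchor neighbours and was 160 kb long, with 5.36% of all TADs shorter. The loop began 5 kb from the left edge of the TAD and ended 30 kb short of the right edge.

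**Figure D2:**
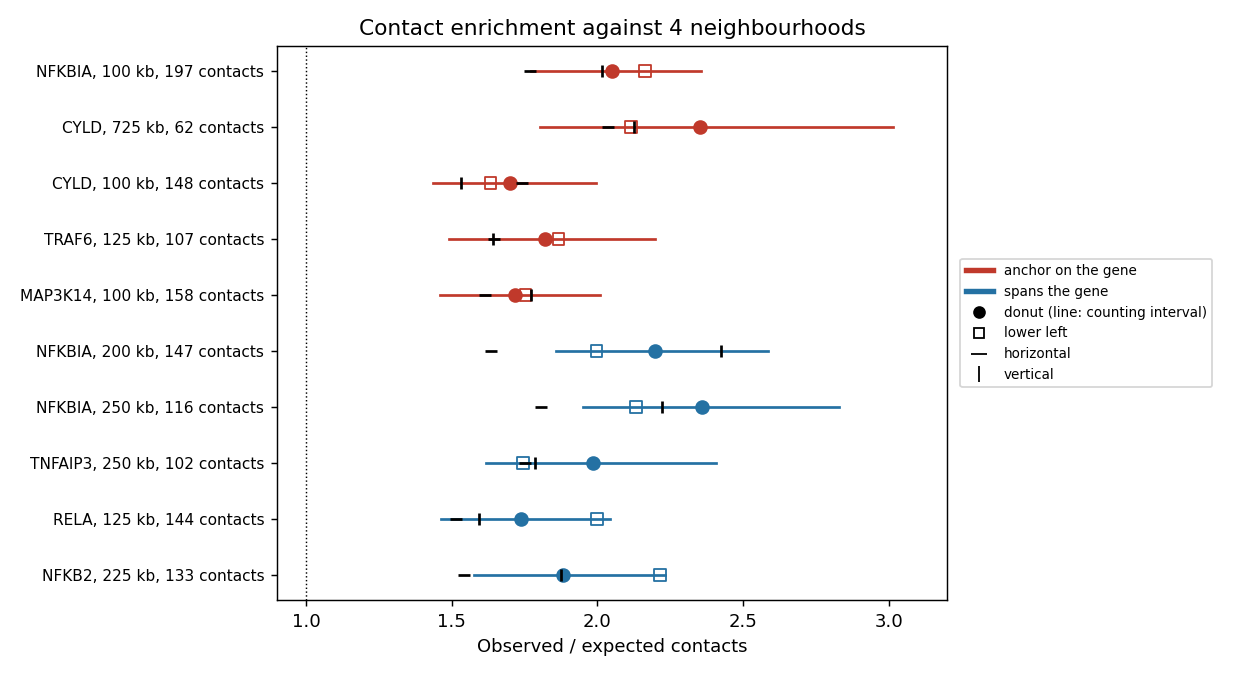
Ratio of observed to expected contacts for the 5 loops with an anchor on a member gene (red) and the 5 that span one (blue), each labelled with its span and contact count. Dots use the donut expectation, with the exact Poisson interval of the count as a line; open squares, dashes and ticks use the lower-left, horizontal and vertical neighbourhoods. All ratios drawn lie above 1, which follows from how loops are listed, and the 725 kb CYLD loop has the widest interval.

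The 3 factor subunits had no anchor on them. RELA encodes p65, the activating subunit of the commonest NF-kB dimer, and NFKB1 encodes p105 and its product p50, the usual partner of p65. RELA spans 7.82 kb on chromosome 2, from 6594869 to 6602684, in a crowded neighbourhood with 52 other protein-coding genes centred within 500 kb, while 95.4% of protein-coding genes had fewer. It lay inside a 125 kb loop from the bin at 6500001 to 6525000 to the bin at 6625001 to 6650000, with OVOL1, AP5B1, KAT5, RNASEH2C and SIPA1. Of these, KAT5 is the acetyltransferase Tip60. The right anchor held ends of PCNX3 and of MAP3K11, a kinase upstream of JNK. The loop had 144 contacts (121 to 170) and a ratio of 1.74 (1.46 to 2.05), and of 1434 autosomal loops of similar span 962 had fewer contacts and 544 a lower ratio. RELA was in no TAD, and the nearest began 107 kb away.

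NFKB1 spans 87.9 kb on chromosome 8, from 118391010 to 118478927, and its locus held no listed loop. The nearest anchor was 546 kb away, farther than for 81.4% of protein-coding genes. That anchor overlapped BANK1, a scaffold protein of B cell receptor signalling, and belonged to a 175 kb loop with 75 contacts and, in the authors' deposited table, an FDR of 0.0977. NFKB1 nonetheless had a TAD to itself, from 118380001 to 118550000, 170 kb long, with the gene 11.01 kb from the left edge. It was the only member that was alone in its TAD.

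NFKB2 encodes p100, the precursor that the NIK branch processes to p52. It spans 7.77 kb on chromosome 14, from 113406412 to 113414177, where the right edge of a TAD of 220 kb, at 113410000, fell inside the gene. That TAD held ELOVL3, PITX3 and GBF1 and lay within a second of 450 kb, from 113150001 to 113600000, with 12 protein-coding genes. The genes nearest to NFKB2 there were GBF1, PSD, FBXL15, CUEDC2 and LOC102167427. A 225 kb loop passed over NFKB2, PSD, FBXL15 and CUEDC2, from an anchor with ELOVL3, PITX3 and GBF1 to an anchor with MFSD13A and LOC102167427. It had 133 contacts (111 to 158) and a ratio of 1.88 (1.58 to 2.23), with 533 of 615 autosomal loops of similar span having fewer contacts and 125 a lower ratio. The nearest anchor, 31.4 kb from the gene in the body of GBF1, belonged to a 125 kb loop with 165 contacts and the same left anchor. With 7 loops anchored within 500 kb, against a median of 2 over all genes, NFKB2 had the busiest surroundings of the 8 genes.

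**Figure D3:**
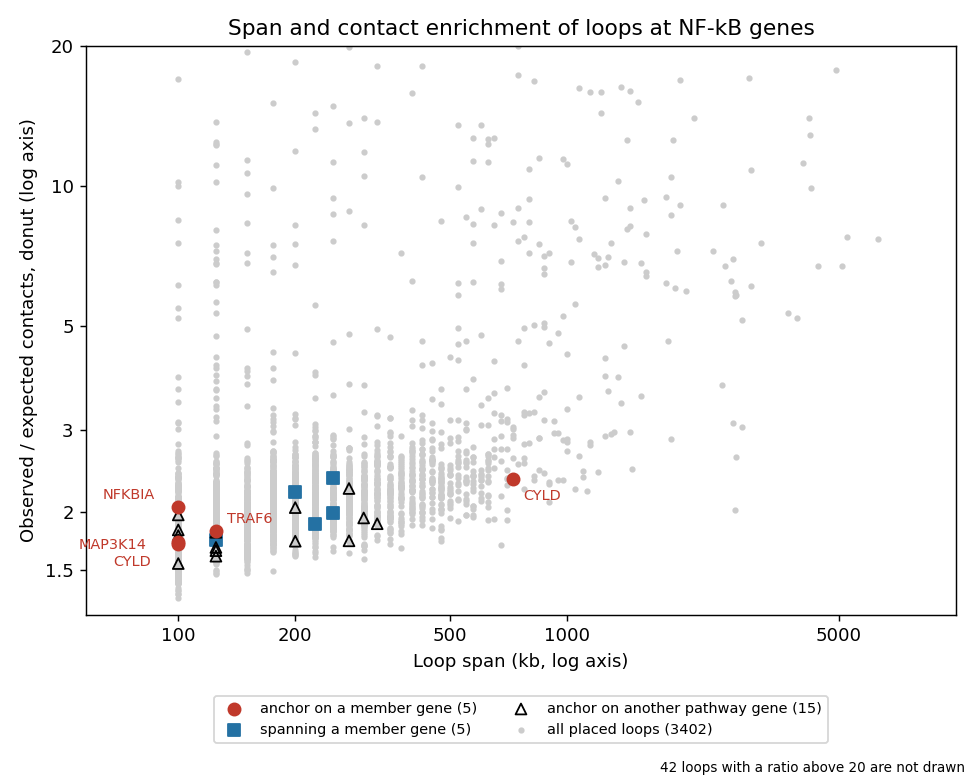
Span in kb and ratio of observed to expected contacts (donut), both on log axes, for the 5 loops with an anchor on a member gene (red), the 5 that span one (blue squares), 15 loops at other pathway genes (open triangles) and all 3402 placed loops (grey). Of the red points, 4 lie at 100 or 125 kb and 1 at 725 kb, all among the grey ones; 42 loops with a ratio above 20 are off the axis.

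Set side by side, the 5 loops were mostly short. Their median span was 100 kb, against 175 kb for all placed loops, and 3 of them had the shortest span in the table, 100 kb. They had a median of 148 contacts, against 108, and a median ratio of 1.82, against 2.02. Autosomal loops of 100 kb had medians of 136 contacts and 1.73, and those near 725 kb had 57.5 contacts and 2.63, so the comparison at similar span given above is the closer one. There the 5 loops fell on both sides of the median ratio, with NFKBIA and, narrowly, TRAF6 above it. Below it were the 725 kb CYLD loop and, narrowly, the 100 kb CYLD loop and MAP3K14. The counting intervals of TRAF6, MAP3K14 and both CYLD loops included the median at their span. That of NFKBIA, 1.77 to 2.36, lay just above 1.73. These intervals cover counting error only, and NFKBIA had the most contacts of the 5. The members were chosen from these same loops, so no difference between loops was tested. Each of the 5 stood alone, touching no other listed pixel, as did 47.6% of placed loops. The counts of TAD edges, shared TADs and partner genes that follow have no share over all placed loops beside them, so nothing is read from them. None of the 5 loops joined both edges of a TAD, with each anchor allowed to lie up to 20 kb from its edge. For 3 of them, NFKBIA, TRAF6 and MAP3K14, both anchor midpoints lay in the same TAD. Partner anchors held a protein-coding gene end for 3 loops, with PSMA6 and KIAA0391, CNEP1R1, and SNX20, and in none of the 5 was the partner another member or a gene of the pathway list.

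For the TADs, 6 of the 8 genes had their midpoint in one, against 31.1% of all protein-coding genes, and the exceptions were CYLD and RELA. An end within 20 kb of a TAD boundary was found for 3, NFKBIA, NFKB1 and NFKB2, against 18.7%. Of these 3, NFKBIA alone was also at a loop anchor. The TADs that held a whole member gene were 160 to 450 kb long and contained 1 to 12 protein-coding genes.

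The wider pathway was set beside the members with a list of 57 further genes, also chosen with earlier results known. Of these, 51 matched a protein-coding gene on a placed chromosome, and 11 had an end at an anchor (21.6%, against 17.3% of all protein-coding genes). TRAF2, TRAF3, BIRC2, RNF31, CARD9 and ITCH were not analysed here. The 11 genes held 15 loops of 100 to 325 kb, with touching loops counted separately. These loops had 76 to 184 contacts and ratios of 1.55 to 2.24, and none approached the span of the long CYLD loop. By role, none of 7 other factor subunits and IkB proteins had an end at an anchor, and none of 5 genes of the IkB kinase group. For adaptors, ubiquitin ligases and upstream kinases the count was 5 of 23, for inhibitors and deubiquitinases 3 of 8, and for receptors 3 of 8. By end or body, 13 of the 51 were at an anchor, against 20.7% of all protein-coding genes. The added genes were TNIP3 and COMMD1, which brought inhibitors and deubiquitinases to 5 of 8. For TADs, 24 of the 51 had their midpoint in one (47.1%, against 31.1% of all protein-coding genes), among them 5 of the 7 factor subunits and IkB proteins and 1 of the 8 receptors. An end lay within 20 kb of a boundary for 10 of them (19.6%, against 18.7%).

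Among the adaptors, TRADD, which binds the TNF receptor, had 2 loops, of 200 kb with 112 contacts and of 125 kb with 139 contacts, and the anchor across from the longer held RRAD and FAM96B. RIPK1, the kinase of the TNF receptor complex, had 1 loop of 125 kb with 94 contacts, to TUBB2B. TAB1, a partner of the kinase TAK1, had 1 of 100 kb with 169 contacts, to MIEF1. RBCK1, the HOIL-1 subunit of the linear ubiquitin ligase, had 1 of 125 kb with 139 contacts, to CSNK2A1, the catalytic subunit of casein kinase 2. BTRC, which recognises phosphorylated IkB for destruction, had 1 of 325 kb with 76 contacts that closed a TAD.

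Of the inhibitors and deubiquitinases, OTULIN, which removes linear ubiquitin chains, had 2 touching loops of 275 and 300 kb with 102 and 90 contacts, both ending in TRIO and both closing a TAD. OTUD7B, a deubiquitinase of the slower branch, had 1 of 100 kb with 184 contacts, to VPS45. TNIP2, a binding partner of A20, had 1 of 100 kb with 164 contacts and the lowest ratio of the 15, 1.55. Of the receptors, TNFRSF13C, the BAFF receptor, had 3 loops of 100, 125 and 200 kb with 181, 157 and 131 contacts. Those of 100 and 125 kb touched each other, and the longest closed a TAD. CD40 had 1 of 275 kb with 92 contacts, to ELMO2. TNFRSF1B, the second TNF receptor, had 1 of 100 kb with 151 contacts to the body of its family neighbour TNFRSF8. The largest of the authors' 4 FDR values was 0.0965 for the TNFRSF1B loop and 0.073 for the BTRC loop. It was 0.0835 for OTULIN at 300 kb, and 0.083 and 0.0589 for TNFRSF13C at 125 and 200 kb. Over the remaining pathway loops it ran from 5.24e-10 to 0.0475.

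**Figure D4:**
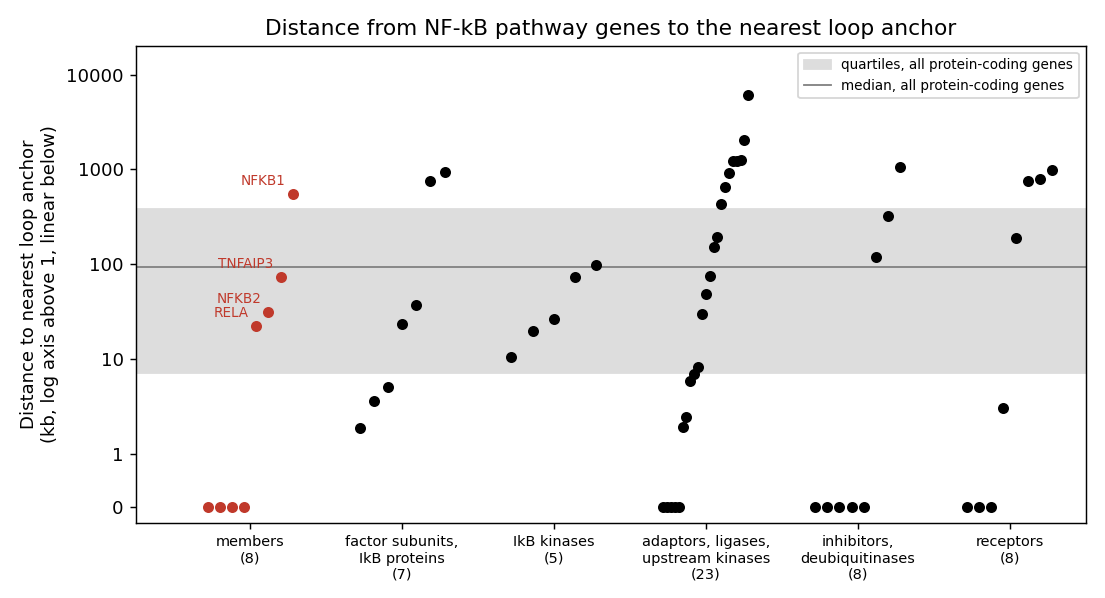
Distance in kb from each gene to the nearest loop anchor (logarithmic above 1 kb, linear below; 0 means that an anchor overlaps the gene) for the 8 members (red) and 51 other pathway genes by role (black), with the quartiles of all protein-coding genes as a grey band. Of the members, 4 lie at 0 and NFKB1 lies above the band, at 546 kb.

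Some of the pathway genes lay just outside an anchor. The median distance over all protein-coding genes was 94.4 kb, with quartiles of 7.25 and 380 kb. Chosen after their values were seen, NFKBIZ at 1.88 kb, NFKBIB at 3.64 kb and NFKBIE at 5.08 kb, the genes of 3 other IkB family proteins, each lay nearer to an anchor than the first quartile, while NFKBID lay at 23.3 kb and BCL3, at 756 kb, lay beyond the third. RELB was 945 kb and REL 36.9 kb from the nearest anchor. Such nearness was not particular to IkB genes. MALT1 at 1.93 kb, TRAF5 at 2.45 kb, TNFRSF11A at 3.04 kb, TIRAP at 5.83 kb and MAP3K7 at 7.05 kb also lay below the first quartile. All 5 genes of the IkB kinase group, which includes the regulatory subunit gene IKBKG, lay outside an anchor. IKBKG lay at 10.6 kb, TBK1 at 20.04 kb, IKBKB at 26.4 kb, CHUK at 73.3 kb and IKBKE at 98.1 kb.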

How the data were processed

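Chromatin contacts were measured by in situ Hi-C in pig spleen (2 replicates, 1 group). The submitters' processing notes name HiC-Pro 3.1.0, and per the file headers the loops come from juicer_tools 1.9.9. The authors' table gives for each loop the observed contact count, not normalized, the expected contacts from 4 neighbourhoods in the same unit, and 4 FDR values (q-values) per the file headers. The TAD caller, the genome build, the calling settings and any pooling of replicates are named in no label or header used here, and sequencing depth is unknown, so contacts per loop are the only measure of precision. Positions follow the deposited tables, counted from 1, and were set against the RefSeq gene table of Sscrofa11.1, which has no strand, so a gene end is either end.

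The members, lists and rules were chosen with earlier results of these data known. All 8 members were described, with every loop on a gene end or body, every protein-coding gene with an end in those anchors, the nearest anchor of the others, and the genes of each TAD (the 5 nearest where over 10). Every pathway gene with an end in an anchor was named. No test was run. Ratios are observed over expected contacts, and loops were set beside autosomal loops of 0.8 to 1.2 times their span. A loop was said to close a TAD, or join its edges, where each anchor lay within 20 kb of the matching edge. The largest of the 4 FDR values was taken for each loop. Intervals are exact Poisson at 95%, with the expected contacts taken as fixed. The overlap code was tested on simulated data. Python 3.11.15, pandas 2.3.3 and scipy 1.17.1 were used.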

Additional observations from a re-analysis of the deposited data

How the results depend on the processing

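The count of members in TADs was 6 under each alternative run, and the median span of the member loops ran from 100 to 112.5 kb. Their median donut ratio ran from 1.82 to 2.05. Against the highest of the 4 expected values, a different measure, the median ratio was 1.64. When only 1701 of 3402 loops, those of smallest FDR, were kept, 2 members had an end at an anchor in place of 4 (2 also by end or body), since the TRAF6 and MAP3K14 loops dropped out, and 9.37% of all protein-coding genes did. The pathway list then had 6 genes at an anchor in place of 11. With anchors extended by 10 kb the members still numbered 4, NFKBIA gaining 2 loops, while the pathway list reached 21 (all genes 24.5%). With a boundary window of 10 kb, 1 member (NFKB2) was near a boundary in place of 3 (all genes 11.1%). A single pixel per touching group gave the same counts of members and pathway genes. No paired analysis was possible because the tables hold no value per replicate, and for the same reason no replicate could be left out. At an unknown depth, the absence of a loop from the list, as at NFKB1, does not show that there is none.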

Other observations

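Beside TNFAIP3 lay further loops that the loop spanning this gene did not reach, some of them at or over cytokine receptor genes. From the bin at 26675001 to 26700000, 185 kb to the right of TNFAIP3, a 250 kb loop with 76 contacts and a 450 kb loop with 64 contacts ran away from the gene, the longer to an anchor with an end of IL20RA, a receptor subunit for interleukins of the IL-20 group. The 250 kb loop held no protein-coding gene end in its anchors, and OLIG3 was the only protein-coding gene between them. Inside the longer loop lay OLIG3, IFNGR1, the interferon-gamma receptor, and IL22RA2, a soluble receptor that binds IL-22. IFNGR1 and IL22RA2 shared a TAD of 190 kb that began 440 kb from TNFAIP3. A loop of 150 kb with 110 contacts ran from the bin at 26925001 to 26950000 to an anchor with an end of IL22RA2. It closed that TAD only within the 20 kb allowed, since its right anchor ended 20 kb short of the right edge. In the authors' deposited table the FDR was 0.073 for the 250 kb loop, 0.0846 for the 450 kb loop and 0.0444 for the 150 kb loop.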
